A study of Mus musculus with 48 samples.

Results

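Gal, Tac2, Nppb, Scg2 and Oprl1 are 5 genes of peptide signalling that were taken by name from 4 tables of genes whose RNA differed between groups of mouse cerebella. They are 5 of the 6143 genes that at least 1 of the tables lists. Gal encodes galanin, Tac2 neurokinin B, Nppb B-type natriuretic peptide and Scg2 secretogranin II, and Oprl1 encodes the receptor for nociceptin. They were proposed because of their differences between Chd4 conditional knockout (cKO) and wild type (WT) in these same libraries, so those differences are given as a description, with no test.

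Chd4 is the ATPase of the NuRD chromatin remodeling complex. The series holds 48 cerebellum samples. Messenger RNA was sequenced at postnatal days 27 to 28 from 4 cKO and 4 WT cerebella, and from 4 cerebellum samples of WT mice trained on a rotarod, a turning rod on which a mouse must balance, and 4 of WT mice at rest in the home cage. Sync-TRAP, a purification of RNA bound to ribosomes, was done at postnatal day 12, 6 days after electroporation, in cKO and WT, with 3 pull-down (IP) libraries of each genotype and 3 input libraries of WT used here. The Cre line that deletes Chd4, and the cells that carry the tag, are not stated by the labels. The labels do not say whether replicates were single animals, so all errors and p-values measure the spread between these samples, which may be technical.

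Neuropeptides are made as larger precursor proteins, cut by proprotein convertases such as the enzyme encoded by Pcsk2, stored in dense core vesicles and released to act mostly on G protein-coupled receptors. Natriuretic peptides are an exception, since the receptors encoded by Npr1 and Npr2 are guanylyl cyclases. Galanin acts on Galr1, Galr2 and Galr3, the tachykinins on Tacr1, Tacr2 and Tacr3 (neurokinin B chiefly on Tacr3), and nociceptin, cut from the precursor encoded by Pnoc, on the receptor of Oprl1. Secretogranin II is a granin, an acidic protein of the vesicle core that is itself cut into peptides.

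The promoters of the 3 genes in which a searched motif was found are shown, as RefSeq gives them on GRCm38.p6, 250 bases before the start site, 5′ to 3′ on the strand of the gene, with the motifs in capitals. The searches were for the cAMP response element TGACGTCA, which is bound by factors of the CREB family, for its short form TGACG and for the E-box CAGCTG, which is bound by basic helix-loop-helix factors, on both strands.
Scg2, chr1:79440027-79440276, minus strand: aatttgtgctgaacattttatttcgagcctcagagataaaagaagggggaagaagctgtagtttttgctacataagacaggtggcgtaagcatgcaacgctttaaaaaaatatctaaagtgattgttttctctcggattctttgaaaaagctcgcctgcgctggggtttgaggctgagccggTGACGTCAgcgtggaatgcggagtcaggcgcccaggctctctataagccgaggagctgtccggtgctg
Nppb, chr4:147985650-147985899, plus strand: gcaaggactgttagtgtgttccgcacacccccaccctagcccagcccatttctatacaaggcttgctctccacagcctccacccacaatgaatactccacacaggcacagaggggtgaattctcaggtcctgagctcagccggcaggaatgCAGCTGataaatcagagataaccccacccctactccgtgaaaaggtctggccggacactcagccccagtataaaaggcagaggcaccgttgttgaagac
Tac2, chr10:127724228-127724477, plus strand: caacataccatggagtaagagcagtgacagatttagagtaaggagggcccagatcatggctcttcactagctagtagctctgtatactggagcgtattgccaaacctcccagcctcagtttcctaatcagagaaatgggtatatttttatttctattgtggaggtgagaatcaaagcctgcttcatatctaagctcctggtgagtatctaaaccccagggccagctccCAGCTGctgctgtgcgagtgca

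The Scg2 promoter holds a whole cAMP response element that begins 68 bases before the start site. Of 32851 RefSeq promoters of the same length, 1.55% hold that element. The E-box begins 99 bases before the start of Nppb and 22 bases before that of Tac2, and 13.0% of promoters hold it. The short form TGACG, in 17.8% of promoters, was found among the 5 genes only in Scg2, where it lies within the whole element on both strands. These letters were not found in the Gal promoter or at any of the 3 start sites of Oprl1, and a match or its lack describes the letters alone.

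The deposited tables leave out every gene whose adjusted p reached 0.05 in the comparison made by the authors. A gene outside a table has no value here and cannot be called unchanged. A gene is said below to have risen or fallen where the authors' deposited table calls it. Levels are in log2 CPM, the log of a read count scaled to the size of its library, and a library with 0 reads sits at a floor set by the authors' prior count. Read numbers were recovered from the steps between low values, and they gave an effective size of 13.7 to 15.6 M reads for each cKO or WT library, of 13.7 to 16.7 M for each library of the training experiment, and of 23.0 to 27.1 M for each pull-down. Chd4 itself, the check on the labels, lay at 8.31 to 8.45 log2 CPM in WT and at 7.90 to 8.06 in cKO mRNA, and it is not listed in the pull-down table. In the pull-down, WT library 1 stood apart from the other 5 libraries by its Y-linked genes: Ddx3y, Uty and Kdm5d were at 4.82, 4.97 and 5.78 log2 CPM there and at -2.61 or less in every other IP library.

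The 5 genes fell into separate tables. Nppb, Scg2 and Oprl1 are listed as higher in cKO mRNA at days 27 to 28, and Gal and Tac2 as higher in the cKO pull-down at day 12. The authors called 20.3% of about 27100 features tested in cKO mRNA (11% higher). In the pull-down they called 0.145% of about 26200, with 0.115% higher and 0.0305% lower. Nothing is read from these shares about genes chosen for these very differences. No one of the 5 is listed in both, and none is listed for rotarod training or for the pull-down against its input in WT.

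Nppb, the natriuretic peptide precursor, was almost without reads in WT. The WT libraries 1 to 4 held 1, 1, 2 and 0 reads, and the cKO libraries 88, 72, 88 and 115. All 4 cKO libraries were thus far above all 4 WT libraries. In log2 CPM this was -2.30, -2.26, -1.92 and -2.87 in WT against 2.71, 2.32, 2.69 and 2.92 in cKO, a difference of 5.0 ± 0.20 (SE, limma). Summed over libraries, 4 reads in WT stood against 363 in cKO, a 92.7-fold ratio whose 95% exact counting interval runs from 35.9 to 342. That interval carries counting error alone and leaves out the spread between libraries. Because WT rests on so few reads, the size of the log2 difference depends on the prior count. In the authors' deposited table Nppb ranks 8 of 5508 from the largest log2 fold change.

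Scg2, the granin, was well expressed in both genotypes. The WT libraries lay at 6.88, 6.91, 6.60 and 6.76 log2 CPM and the cKO libraries at 7.46, 7.74, 7.66 and 7.57. Every cKO library was above every WT library, by a mean difference of 0.82 ± 0.09 (SE, limma), or 1.76-fold. Behind these levels are 1503 to 1772 reads per WT library and 2415 to 3155 per cKO library, so counting error is small beside the spread between libraries.

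Oprl1, the nociceptin receptor, was at 4.01, 3.87, 3.62 and 3.69 log2 CPM in WT and at 5.90, 5.98, 5.97 and 5.95 in cKO. The groups did not overlap, and the cKO libraries lay closer together (SD 0.036) than the WT libraries (SD 0.18). The WT libraries held 188 to 241 reads and the cKO libraries 817 to 956, so counting error is larger in WT. Its part in these SDs was not tested. The difference was 2.15 ± 0.09 (SE, limma), or 4.44-fold. WT libraries 1 and 2 were both above WT libraries 3 and 4, and the difference was 2.0 between the libraries numbered 1 and 2 and 2.31 between those numbered 3 and 4. In whole tissue, less RNA per cell and fewer cells of a type cannot be told apart, here and in every mRNA result that follows.

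**Figure D1:**
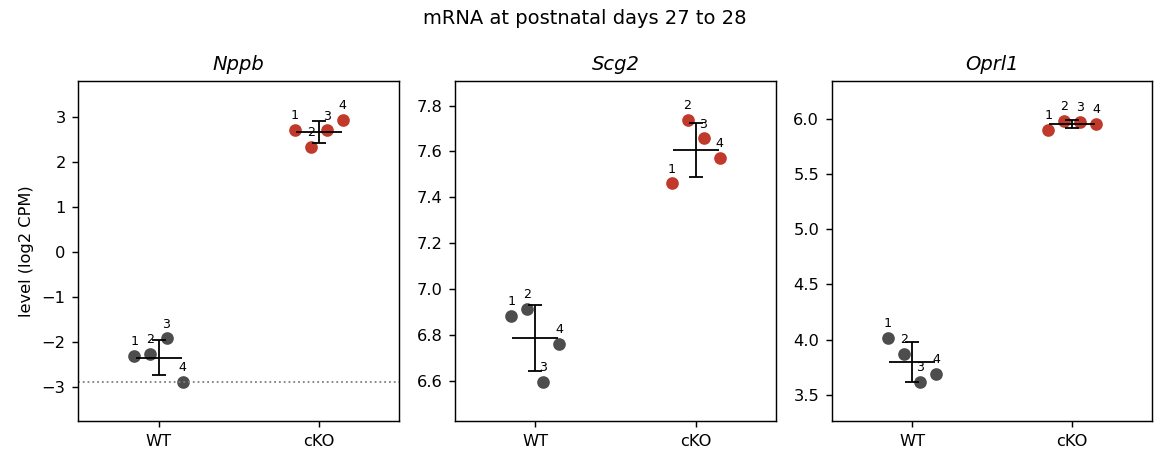
Levels of Nppb, Scg2 and Oprl1 in each cerebellum mRNA library (y axis, log2 CPM, with a scale of its own in each panel) in 4 WT and 4 cKO libraries. Points carry the replicate number, bars are the mean ± SD and the dotted line is the value of 0 reads; in each panel all cKO points lie above all WT points.

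In the pull-down at day 12, Gal, the galanin precursor, had no read in any of the 3 WT libraries. The cKO libraries 1 to 3 held 14, 31 and 331 reads, or -0.55, 0.46 and 3.78 log2 CPM against a floor of -3.71. All cKO libraries were above WT, but library 3 alone held most of the 376 reads. Against the 3 reads over the group that a count of 0 allows in WT, the summed reads gave a ratio of at least 139-fold. Without cKO library 3 that ratio was at least 25.3-fold. Such floors, here and below, carry counting error in WT alone and leave out the spread between libraries. The difference of the mean log2 values was 4.94 ± 1.19 (SE, limma), which rests on the prior count, and the authors' deposited table gives log2 fold changes of 9.55 and 4.94 in its 2 fold change columns.

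Tac2, the neurokinin B precursor, had 8, 0 and 0 reads in the WT pull-downs and 377, 92 and 19 in the cKO pull-downs. The lowest cKO library was above the highest WT library, and library 1 was the highest in both genotypes. The 8 WT reads came from the WT library that carries the Y-linked RNAs. In log2 CPM the WT libraries were at -1.34, -3.71 and -3.71 and the cKO libraries at 4.04, 1.98 and -0.22, a difference of 4.85 ± 1.29 (SE, limma). The summed reads gave a 67.9-fold ratio (95% exact counting interval 34.2 to 158, which carries counting error alone and leaves out the spread between libraries). That ratio was 22.8-fold without cKO library 1, and without WT library 1, which leaves no WT read, Tac2 was at least 123-fold higher.

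The cKO pull-downs therefore held Gal and Tac2 in opposite order, with Gal highest in library 3, where Tac2 was lowest, and Tac2 highest in library 1, where Gal was lowest. The spread over the cKO libraries was 4.32 log2 units for Gal and 4.26 for Tac2. The median spread of the 30 genes listed as higher in the cKO pull-down was 2.99, and 7 of them spread more widely than Gal. Of these 30 genes, 19 were highest in cKO library 3 and 6 in cKO library 1. No read in any WT library, as for Gal, was found for 9 of the 30. Among markers of other cell types, 1 of 10 Purkinje cell markers is listed as lower in the cKO pull-down, beside 0.0305% of all features. It is Itpr1, at 513 to 865 CPM in WT and 183 to 511 in cKO, and limma did not call it (-1.23 ± 0.73). No marker of the other 11 lists is listed. The part of the Itpr1 difference in the Gal and Tac2 values was not tested.

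**Figure D2:**
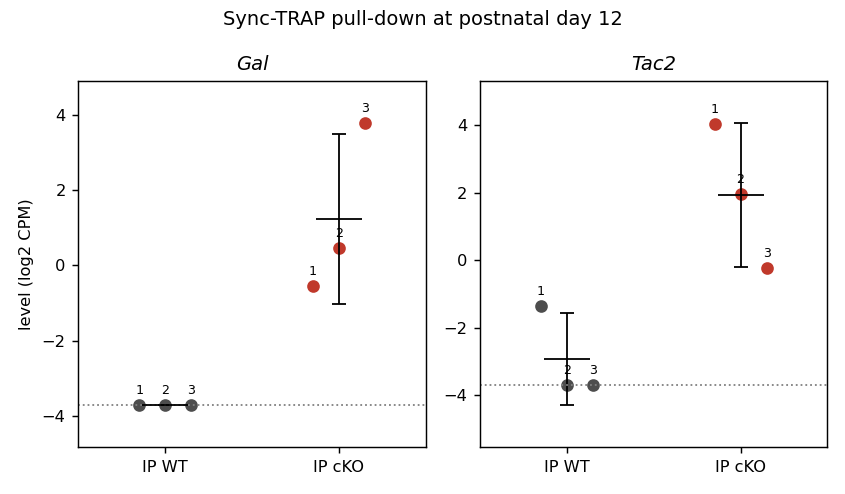
Levels of Gal and Tac2 in each Sync-TRAP pull-down library at day 12 (y axis, log2 CPM) in 3 WT and 3 cKO libraries. Points carry the replicate number, bars are the mean ± SD and the dotted line is the value of 0 reads; Gal is highest in cKO library 3 and Tac2 in cKO library 1.

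By family, 10 genes were paired with the 5: the receptors Galr1 to Galr3, Tacr1 to Tacr3 and Npr1 to Npr3, and the nociceptin precursor Pnoc. The cKO table lists 4 of the 10, all of them higher, where it calls 11% of features higher. They are Galr1, Tacr1, Tacr2 and Npr2, not each the main partner of a gene described here. Npr2 is the receptor of C-type natriuretic peptide, neurokinin B acts chiefly on Tacr3, and Pnoc is not listed. Galr1, a galanin receptor, rose from 0.68, 0.96, 0.69 and 0.64 log2 CPM in WT to 2.45, 2.40, 2.41 and 2.20 in cKO. No cKO library fell near the WT libraries, and the difference was 1.62 ± 0.09 (limma, adjusted p = 1.75e-05). Its ligand gene Gal is not listed in that mRNA table. Of the tachykinin receptors, Tacr2 rose with 2, 1, 0 and 1 reads in WT and 14, 10, 16 and 13 in cKO, a difference of 2.39 ± 0.22 (limma, adjusted p = 2.41e-04). Tacr1, the substance P receptor, had 2, 3, 1 and 2 reads in WT and 5, 9, 14 and 4 in cKO. Its groups did not overlap, but the difference of 1.25 ± 0.32 was near the threshold (limma, adjusted p = 0.0388) and its adjusted p was 0.0501 to 0.103 without any 1 of WT libraries 1 to 4 or cKO libraries 1 to 3. Tacr3, the main receptor of neurokinin B, is not listed in the cKO table.

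The natriuretic family showed a second peptide and a receptor beside Nppb. Nppc, which encodes C-type natriuretic peptide, rose from 57, 39, 50 and 57 reads in WT to 157, 185, 170 and 190 in cKO, a difference of 1.79 ± 0.10 (limma, adjusted p = 1.90e-05). Npr2, the receptor of that peptide, rose from 6.19, 6.20, 6.37 and 6.21 log2 CPM to 6.60, 6.44, 6.52 and 6.58, a difference of 0.29 ± 0.06 (limma, adjusted p = 0.0175). Its lowest cKO library was only just above its highest WT library, and limma's adjusted p rose to the threshold or past it, up to 0.0545, without WT library 2 or 4 or cKO library 1 or 4. Nppa, Npr1 and Npr3 are not listed. Corin, which encodes the enzyme that activates atrial natriuretic peptide, fell by 0.34 ± 0.08 on the log2 scale (limma, adjusted p = 0.0277). Its adjusted p was 0.0528 to 0.0729 without WT library 1, 2 or 3 or cKO library 1, 3 or 4.

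**Figure D3:**
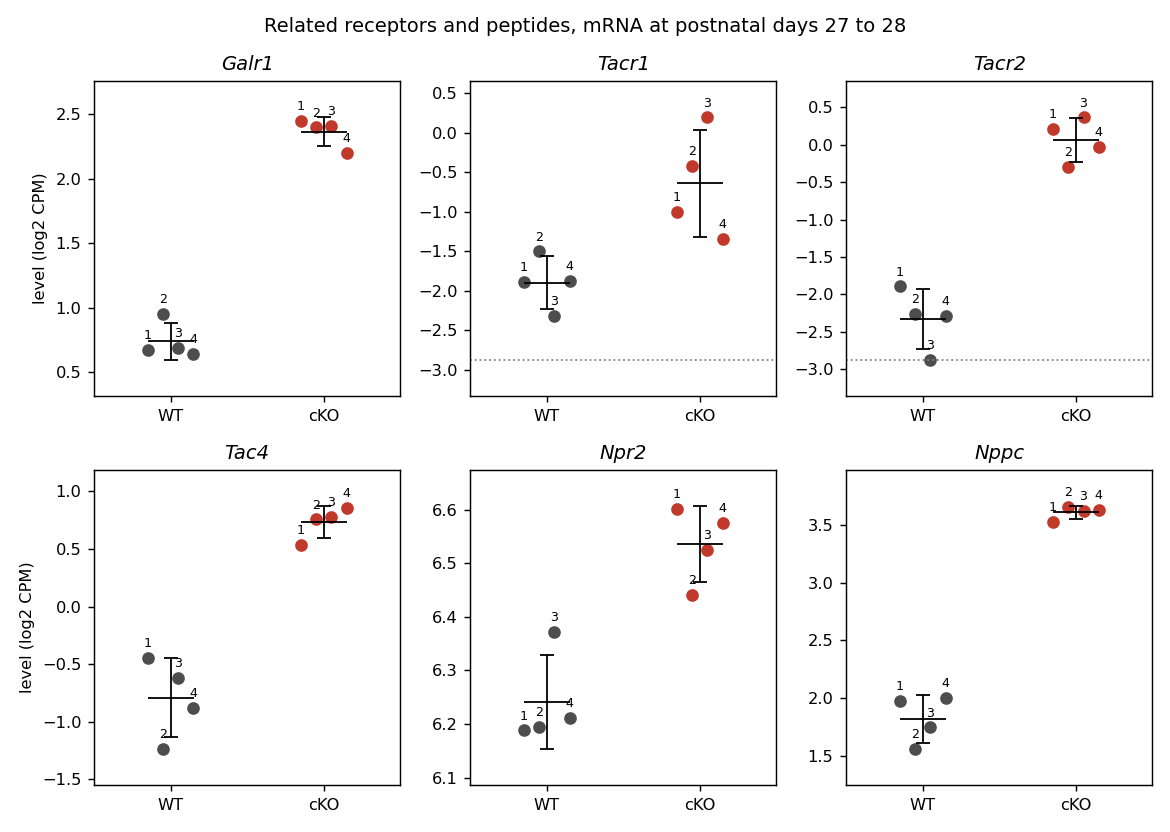
Levels in each mRNA library (y axis, log2 CPM, with a scale of its own in each panel) of galanin and tachykinin receptors (Galr1, Tacr1, Tacr2), of the tachykinin precursor Tac4 and of the natriuretic genes Npr2 and Nppc, in 4 WT and 4 cKO libraries. Points carry the replicate number, bars are the mean ± SD and the dotted line is the value of 0 reads; no group overlaps its partner group, and Tacr1 and Npr2 come closest.

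Beyond the 5 genes, 197 genes of 6 lists of the peptide system (precursors, granins, receptors, processing enzymes, degrading enzymes and dense core vesicle proteins) were counted in the cKO table. Of these, 34 rose (17.3%), 23 fell (11.7%) and 140 are not listed, where the table calls 11% of features higher and 9.29% lower. limma called 29 of the 34 and 11 of the 23. The median difference of the called genes was 0.36 in log2 CPM, and that of all listed genes was 0.21. Medians over called genes leave out every gene without a call, so nothing is read from them about a list.

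Among 64 further precursors, 6 rose (9.38%, beside 11% of all features) and 5 fell (7.81%, beside 9.29%). Calca, the precursor of calcitonin and CGRP, had 4, 3, 5 and 2 reads in WT and 45, 55, 54 and 54 in cKO. That was a difference of 3.35 ± 0.15 (limma, adjusted p = 6.62e-06). Rln3, the relaxin-3 precursor, had no read in WT and 10, 9, 13 and 18 reads in cKO, at least 17.0-fold higher against 3 reads over the group. Adm2, the precursor of adrenomedullin 2, had none in WT and 3, 2, 6 and 14 in cKO, at least 8.52-fold higher. Tac4, a tachykinin precursor like Tac2, rose from 9, 4, 8 and 6 reads to 18, 23, 22 and 26, a difference of 1.53 ± 0.16 (limma, adjusted p = 5.54e-04). Nts, the neurotensin precursor, was called lower by the authors' table, but its groups overlapped (4 to 13 reads in WT, 1 to 5 in cKO; limma, -1.06 ± 0.32, adjusted p = 0.0711, and 0.0343 without WT library 2). Rln3 and Calca are known from brainstem neurons. Of 10 markers of deep nuclear and brainstem neurons, 2 were called higher (Hoxb8, Tph2), 2 lower (Hoxb5, Th) and 6 are not listed. Hoxb8, Hoxb5 and Th overlapped between groups, and limma called only Tph2 (0.70 ± 0.19, adjusted p = 0.0459). The listed ones summed to 6.55 to 24.2 CPM in WT and 5.25 to 10.9 in cKO. Th in WT library 2, at 23.4 CPM, made up most of the highest sum. The part of such neurons in the peptide gene values was not tested.

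Of the 6 granins other than Scg2, 2 rose (33.3%, beside 11% of all features) and 2 fell (33.3%, beside 9.29%). Chga, which encodes chromogranin A, rose from 6.95, 6.87, 6.89 and 6.92 log2 CPM in WT to 7.34, 7.35, 7.39 and 7.36 in cKO, a difference of 0.45 ± 0.04 (limma, adjusted p = 3.22e-04). Chgb, which encodes chromogranin B, rose by 0.32 ± 0.07 (limma, adjusted p = 0.0161, and 0.0511 without cKO library 4). Vgf, whose product is also cut into signalling peptides, fell by 0.43 ± 0.11 on the log2 scale (limma, adjusted p = 0.0312, and 0.0797 to 0.0872 without WT library 1 or 2 or cKO library 1, 3 or 4). Pcsk1n, which encodes the proSAAS inhibitor of convertases, was called lower by the authors' table, with overlapping groups and a limma difference of -0.19 ± 0.12 (adjusted p = 0.808). The granins did not move in 1 direction.

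Of 84 receptors other than Oprl1, 15 rose (17.9%, beside 11% of all features) and 5 fell (5.95%, beside 9.29%). The median difference of 1.31 was taken over the called ones alone, so it is not a measure of the 84 receptors. Prokr2, a prokineticin receptor, rose from 16, 11, 15 and 18 reads in WT to 154, 146, 131 and 167 in cKO, by 3.20 ± 0.12 (limma, adjusted p = 2.95e-06). Mchr1, the receptor of melanin-concentrating hormone, rose from 11, 9, 7 and 7 reads to 79, 88, 83 and 112, by 3.17 ± 0.14 (limma, adjusted p = 6.38e-06). Uts2r, Vipr1 and Bdkrb2, the receptors of urotensin, of VIP and PACAP, and of bradykinin, rose by 2.81 ± 0.28, 2.62 ± 0.10 and 2.45 ± 0.29. Vipr1 was the most deeply counted of these, with 65 to 95 reads per WT library and 456 to 553 per cKO library. The Oprl1 difference of 2.15 lay just under that of Tacr2 (2.39) and just above that of the somatostatin receptor Sstr2 (2.14 ± 0.16), differences that overlap within their errors.

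Of 12 processing enzymes, 6 fell (50%, beside 9.29% of all features) and 2 rose (16.7%, beside 11%). Limma called 3 of the 6 and 2 of the 2. Pcsk2, which encodes the main convertase of neuropeptide precursors, fell from 6.86, 6.78, 6.87 and 6.93 log2 CPM in WT to 6.04, 6.17, 6.08 and 5.97 in cKO. All cKO libraries were below all WT libraries, by 0.80 ± 0.06 (limma, adjusted p = 8.74e-05). Pcsk6, a convertase of growth factor precursors, gave -0.30 ± 0.07 (limma, adjusted p = 0.0297, and 0.0530 to 0.0832 without WT library 1, 2 or 3 or cKO library 1, 3 or 4). Pam, the enzyme that amidates peptide ends, was called lower by the authors' table, with a limma difference of -0.26 ± 0.10 (adjusted p = 0.138, and 0.0457 without WT library 3). Qpct, which forms pyroglutamate at peptide ends, rose by 0.79 ± 0.18 (limma, adjusted p = 0.0248, and 0.0503 to 0.0622 without WT library 2 or cKO library 2 or 3), and the convertase gene Pcsk4 rose by 0.72 ± 0.08 (limma, adjusted p = 6.75e-04).

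Of 12 degrading enzymes, 2 were called higher (16.7%, beside 11% of all features) and 2 lower (16.7%, beside 9.29%) by the authors' table, all by small amounts. Thop1, which encodes thimet oligopeptidase, gave -0.26 ± 0.06 (limma, adjusted p = 0.0285, and 0.0546 to 0.0816 without WT library 2 or 4 or cKO library 1, 2 or 4). Limma did not call Ece2 (0.30 ± 0.10, adjusted p = 0.0864, and 0.0441 without cKO library 2), Ace (0.26 ± 0.24) or Anpep (-0.31 ± 0.11). Dense core vesicle genes rose in 7 of 19 cases (36.8%, beside 11% of all features) and fell in 3 (15.8%, beside 9.29%). Ptprn, which encodes the vesicle membrane protein IA-2, rose from 7.71, 7.87, 8.0 and 7.89 log2 CPM in WT to 8.65, 8.54, 8.59 and 8.72 in cKO, by 0.75 ± 0.07 (limma, adjusted p = 3.51e-04). Rab3b and Rab3d, small GTPases of vesicle release, rose by 0.77 ± 0.10 and 0.65 ± 0.10, Cadps, a priming factor, by 0.49 ± 0.05 and Hid1, a factor of vesicle formation, by 0.48 ± 0.06. Syt4, a synaptotagmin of dense core vesicles, fell by 0.44 ± 0.06 (limma, adjusted p = 0.00247).

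**Figure D4:**
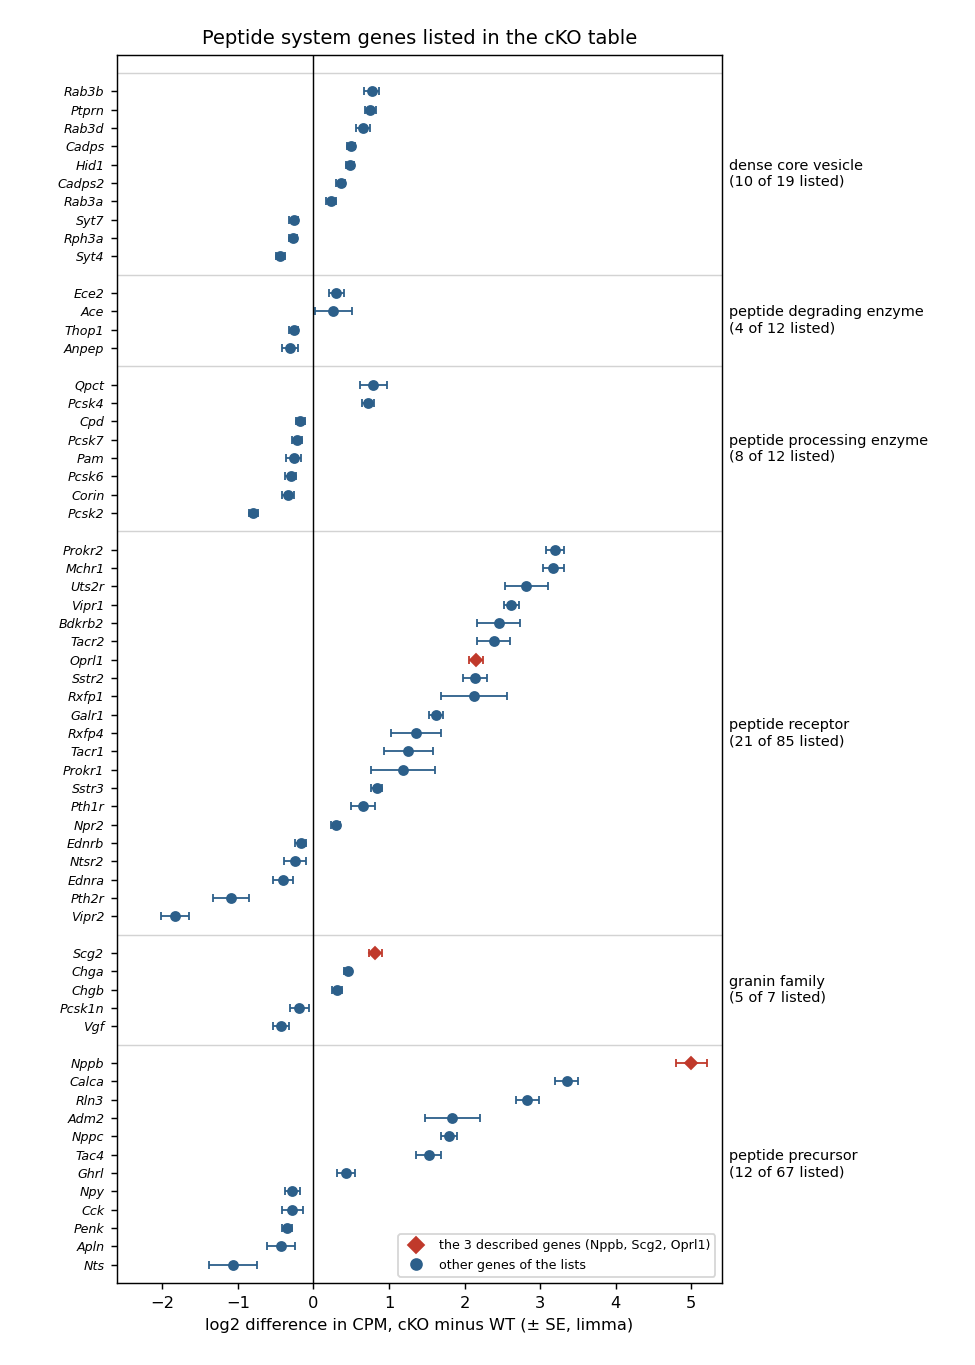
Log2 difference in CPM, cKO minus WT (x axis, ± SE from limma), for each peptide system gene that the cKO table lists, grouped by list. Diamonds are Nppb, Scg2 and Oprl1 and circles the other genes; receptors reach past 3 on the side higher in cKO, and Nppb is the farthest at 5.0.

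Markers of other cell types moved in the same libraries. Over 11 marker lists other than that of granule neurons, 6 of 88 entries rose, 44 fell and 38 are not listed. Of 10 Purkinje cell markers 9 fell, and the listed ones summed to 10659.9 to 11167 CPM in WT and to 8966 to 9686 in cKO. Of 6 unipolar brush cell markers 4 fell and 1 rose, Calb2, and the median difference of the listed ones was -0.27. Their sum of 608 to 677 CPM in WT and 946 to 1055 in cKO is carried by Calb2, at 388 to 463 CPM in WT and 756 to 869 in cKO. Of 10 granule neuron markers 2 rose and 4 fell, with sums of 3535 to 3814 CPM in WT and 2983 to 3071 in cKO. The part of these shifts in the peptide gene values was not tested.

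By the root mean square distance over the 8 mRNA libraries, each gene taken relative to its WT mean, the 3 genes most like Nppb were Mslnl (0.25 log2 units), Kcnj5 (0.32) and Casq1 (0.40). Among those nearest to Oprl1 were Cox6b2 (0.087) and Mxra7 (0.12). Nearest to Scg2 were Zwint (0.076), Sqstm1 (0.078), which encodes the autophagy receptor p62, and Lhfpl2 (0.080). These distances follow mostly the size of the difference between genotypes, which was 5.05, 4.89 and 4.95 in the genes nearest to Nppb.

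Of the 12 protein-coding genes that lie nearest to Nppb, Scg2 and Oprl1 in the RefSeq order, 2 on each side, 3 were called higher and 1 lower, in a table that calls 20.3% of features. Nppa, the natriuretic peptide gene next to Nppb, is not listed, and Clcn6 behind it rose by 0.21 ± 0.05. Beside Scg2, Ap1s3, which encodes a subunit of a clathrin adaptor, rose by 1.64 ± 0.17, and Acsl3, Kcne4 and Wdfy1 are not listed. Beside Oprl1, Myt1 rose by 0.33 ± 0.08, Pcmtd2 fell by 0.30 ± 0.08 on the log2 scale and Rgs19 and Lkaaear1 are not listed.

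None of the 5 genes is listed for rotarod training. That table calls 3.38% of about 26900 features, so nothing is read from 0 of 5, and the 5 have no value in it. Of the 197 other peptide system genes, that table lists 2 as higher and 4 as lower, or 1.02% and 2.03%, where it calls 2.06% and 1.31% of all features. These libraries are named by their column number. Galr2, a galanin receptor, rose from 19, 18, 19 and 16 reads in rest libraries 1, 2, 5 and 6 to 41, 30, 40 and 44 in rotarod libraries 3, 4, 7 and 8. All rotarod libraries were above all rest libraries, by 0.89 ± 0.11 (limma, adjusted p = 0.0191). Edn1, the endothelin-1 precursor, rose from 33, 36, 30 and 38 reads to 66, 70, 63 and 67, by 0.79 ± 0.10 (limma, adjusted p = 0.0191). Limma's call of Galr2 was lost (adjusted p 0.0571 to 0.0693) without rest library 1, 2 or 6 or rotarod library 3, 7 or 8. That of Edn1 was lost (0.0507 to 0.0698) without rest library 2 or 5 or any rotarod library.

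The 4 genes that the authors' table calls lower with training were not called by limma, which called 0 of the 4 at an adjusted p under 0.05 and 3 of the 4 at an unadjusted p under 0.05. Calca had 7, 5, 9 and 3 reads at rest and 3, 2, 1 and 1 after training (-1.15 ± 0.26, limma, adjusted p = 0.121). Vipr1 and Pcsk2 gave -0.61 ± 0.17 and -0.26 ± 0.06 (limma, adjusted p = 0.277 and 0.173), with no overlap between groups. Tacr3, the main receptor of neurokinin B, had 7, 4, 1 and 11 reads at rest and 0, 21, 0 and 0 after training, so that its highest library was a trained one. Its limma difference was -0.92 ± 0.83 (adjusted p = 1), and no direction is drawn from it.

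Some markers were also called with training. The authors' table calls 5 of 8 meningeal and fibroblast markers lower, beside 1.31% of all features, with sums of 131 to 177 CPM at rest and 95.3 to 118 after training. Limma called none of the 5 (adjusted p 0.0872 to 0.601), and Slc13a4 and Slc22a6 overlapped between groups. Of 6 unipolar brush cell markers 1 rose, Eomes, from 26.6 to 34.4 CPM at rest to 55.7 to 96.9 after training, without overlap (1.31 ± 0.18, limma, adjusted p = 0.0237). The authors' table also calls 1 of 10 granule neuron markers (Cbln1), 1 of 8 astrocyte and Bergmann glia markers (Sox9) and 1 of 10 deep nuclear and brainstem neuron markers (Dbh) lower, with limma's adjusted p at 0.130, 0.0597 and 1. It calls 1 of 8 vascular markers higher, Flt1 (37.1 to 57.3 CPM at rest and 53.0 to 67.5 after training), and 1 of 6 blood markers, Hba-a1 (54.3 to 163 and 95.5 to 170.5), both with overlapping groups and limma's adjusted p at 0.711 and 1. The part of these markers in the values of Edn1 and the other peptide genes was not tested.

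**Figure D5:**
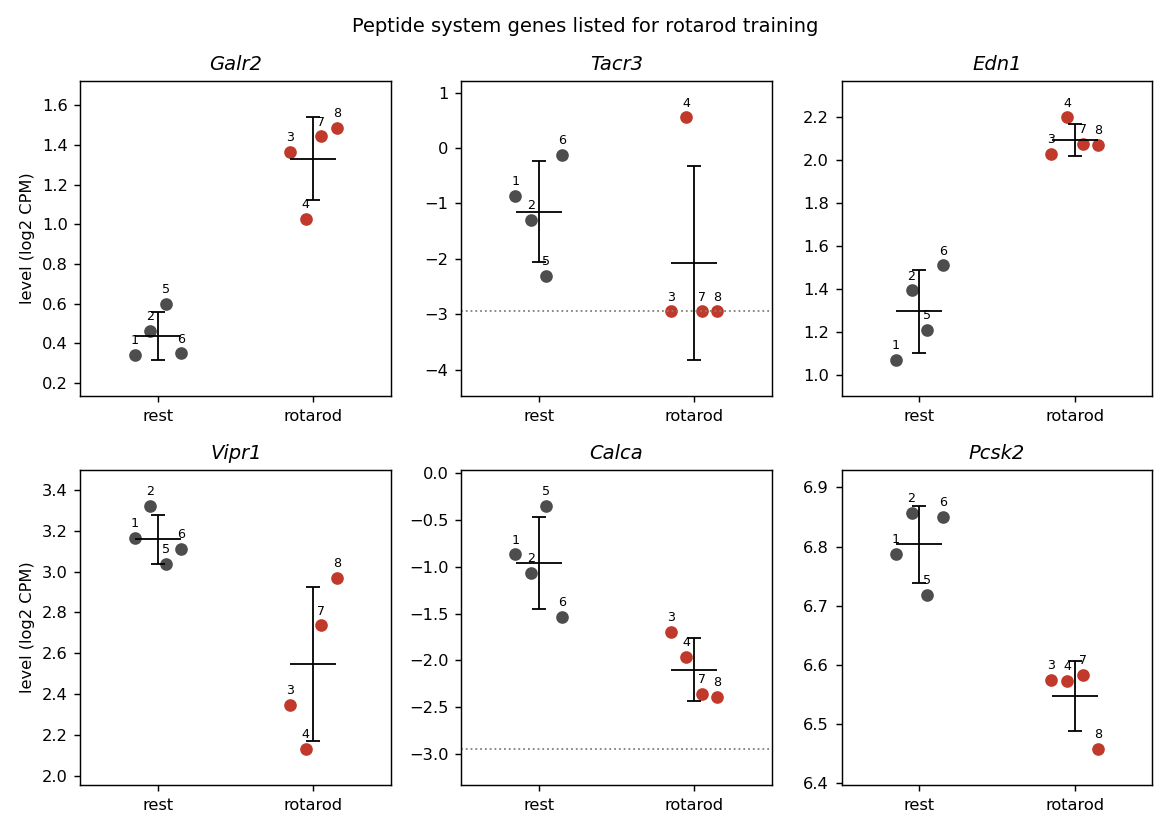
Levels in each mRNA library (y axis, log2 CPM, with a scale of its own in each panel) of the 6 peptide system genes listed for rotarod training, in 4 rest and 4 rotarod libraries. Points carry the column number, bars are the mean ± SD and the dotted line is the value of 0 reads; Galr2 and Edn1 are higher in every rotarod library, and Tacr3 is at 0 reads in 3 rotarod libraries and highest in library 4.

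Pcsk2, Calca and Vipr1 are in both mRNA tables, which come from separate libraries. Pcsk2 was lower in cKO (-0.80 ± 0.06) and is called lower with training (-0.26 ± 0.06), a call that limma does not share (adjusted p = 0.173). Calca and Vipr1 were higher in cKO (3.35 ± 0.15 and 2.62 ± 0.10) and are called lower with training (-1.15 ± 0.26 and -0.61 ± 0.17), calls that limma does not share. In the pull-down tables, 0 of the 197 genes is listed for cKO against WT or for WT pull-down against input, where 0.145% and 0.195% of features are called by the authors.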

How the data were processed

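The 5 genes, the gene lists and the rule for named genes (the 5 genes, the receptors and precursor paired with them by family, up to 6 called genes per list by size of difference in cKO, all called genes of the lists in the other tables and the 3 nearest genes) were chosen with earlier results of these data known. A gene that this rule names is not reported here. The authors deposited 4 tables. Per the file headers, they give log2 CPM per library and a log2 fold change, the p-value with its adjusted form, and the likelihood ratio, a test score. Bowtie, edgeR and build mm9 are named in the submitters' processing notes. Neither labels nor notes give versions, counting tool or strand use, so overlapping genes cannot be told apart. Genes at or above an adjusted p of 0.05 are left out of the deposited tables. Lines repeated for a gene were removed (5557 became 5508 genes, 913 became 908). The planned count model needs counts of all genes and was not run.

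The listed genes' deposited log2 values were fitted with limma 3.58.1 in R 4.3.3 for differences and SE. P-values were Benjamini-Hochberg adjusted over about 27100, 26900 and 26200 features tested, a number read from the ratio of p to adjusted p. The fit was also run on simulated data for both mRNA tables, but not for the pull-down. Those data had 200 changed genes and normal noise, unlike the called genes fitted here, so nothing is read from that run. Its variance prior comes from called genes alone. Reads were recovered by removing the floor. All (100%) of the low values checked, up to 20 reads, were whole within 0.1 read, but the size of each IP library rests on 3 to 7 values. Count ratios and floors (3 reads) carry counting error only, and PCR copies are not independent. Columns headed cre and ctrl were taken as cKO and WT. Rotarod columns carry numbers that match no sample title. The 20 chromatin samples, the 3 cKO inputs and 2 region lists on mm9 were not used here.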

Additional observations from a re-analysis of the deposited data

Results flagged for a closer look

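In 5 groups of 4 libraries, a single library lay far from the other 3, by Dixon's criterion at the 95% level, which chance meets in about 1 group in 20. Both genotypes were screened for Nppb, Scg2, Oprl1 and 57 other listed peptide genes, and rest and rotarod for 6 genes. Several such groups are therefore met by chance, and nothing is read from the number found. Mchr1 was at 2.88 log2 CPM in cKO library 4, above 2.56 to 2.61 in the other cKO libraries. Galr1 was at 0.96 log2 CPM in WT library 2, above 0.64 to 0.69 in the others. Npr2 was at 6.37 log2 CPM in WT library 3, above 6.19 to 6.21 in the others. After training, Tacr3 was at 0.55 log2 CPM in rotarod library 4 and at the floor of -2.95 in the other 3, and Pcsk2 was at 6.46 log2 CPM in rotarod library 8, below 6.57 to 6.58 in the others.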

How the results depend on the processing

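No result changed direction under any alternative run. With 1 and with 5 CPM added before the log, the difference became 2.76 and 1.15 for Nppb, 1.92 and 0.80 for Gal and 2.28 and 1.01 for Tac2, genes near 0 reads in WT, and Oprl1 became 1.83 with 5 CPM. Oprl1 was 2.0 in the libraries numbered 1 and 2 and 2.31 in those numbered 3 and 4. With 1 library left out at a time, the differences ranged from 4.82 to 5.14 for Nppb, 2.09 to 2.22 for Oprl1, 0.75 to 0.87 for Scg2, 3.67 to 5.83 for Gal and 3.8 to 5.93 for Tac2. Of the 34 genes called higher in cKO, 17 had a log2 fold change of at least 1 and 12 were at or above the median abundance. Of the 23 called lower, 4 and 3 had a fold change of at least 0.5 and 1, 15 were at or above the median abundance, and limma called 11, or 14 with a trend. With 1 library left out, limma called 25 to 27 higher and 6 to 9 lower. With rotarod training, neither gene called higher had a log2 fold change of at least 1 or the median abundance (0 and 0). Of the 4 called lower, 0 passed an adjusted p of 0.01, 2 had a fold change of at least 1, 1 had the median abundance and limma called 0, with a trend 0. With 1 library left out, limma called 0 to 1 higher and 0 to 0 lower.

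Same-numbered cKO and WT libraries deviated together with correlations of 0.098, 0.16, 0.13 and 0.085, and 3 of 4 cKO libraries were nearest to their own number, a hint of pairing in the data. The numbers were not taken as pairs, because the labels state none and not every correlation was over 0.1. With the replicate block, limma called 27 genes higher and 7 lower, against 29 and 11 without it. Among the named genes, Corin, Npr2, Pcsk6, Qpct, Tacr1 and Thop1 then had an adjusted p of 0.0545 to 0.104, and Anpep passed at 0.0443. Other calls gained were Ece2 and Nts with a trend (0.0176 and 0.0380) and Ece2 with 5 CPM added (0.0426). In the pull-down the correlations were 0.19, -0.077 and 0.22, and 2 of 3 cKO libraries were nearest to their own number. No paired analysis was possible for rotarod against rest because the columns carry numbers of no sample title.

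Depth limits Nppb, Gal, Tac2, Tacr1, Tacr2, Rln3, Adm2 and Calca, which rest on few or no reads in the control group.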

Other observations

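The receptors of VIP and PACAP moved apart in cKO, which was noticed after the values were seen. Vipr2 fell from 170, 163, 275 and 212 reads in WT to 48, 52, 43 and 77 in cKO, a difference of -1.83 ± 0.18 (limma, adjusted p = 3.51e-04), while Vipr1 rose by 2.62 ± 0.10. Both somatostatin receptors that the cKO table lists rose, Sstr2 from 14, 19, 26 and 21 reads to 91, 107, 79 and 89 and Sstr3 by 0.83 ± 0.07.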
